A study of Drosophila melanogaster with 8 samples.

Results

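The genes of trehalose and sugar transport were followed in S2 cells, a Drosophila melanogaster line derived from embryos that resembles macrophages. The set had 9 members chosen by symbol, with earlier results of these data known. Among them were the trehalose transporter Tret1-1, Tret1-2 of the same transporter family, the trehalase Treh and the trehalose synthesis gene Tps1. The others were the sugar transporter genes sut1, sut2, sut3 and sut4, and the glucose transporter Glut1. A member counted as measured when the platform annotation gave it a probe set naming that gene alone. This held for 8 of the 9 members, with 9 probe sets, out of 11009 genes measured that way in all. Tps1 is not analysed here, because no probe set among the deposited values is annotated to it. All 8 samples were S2 cells that had been transfected with double-stranded RNA (dsRNA) by means of the lipid reagent Cellfectin II. In 4 samples the dsRNA was directed against DmSTING, a fly protein related to the mammalian innate immune sensor STING, and in the other 4 it was scrambled. After 72 h a second transfection followed, with c-di-GMP, a dinucleotide that bacteria use as a signal, or with the lipid reagent only (mock), and RNA was taken 24 h later. Each of the 4 groups had 2 samples, and the series asked how DmSTING affects the response to c-di-GMP.

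Trehalose is the main circulating sugar of insects. It is made mainly in the fat body, enters cells through Tret1 transporters and is cleaved to glucose by trehalase, after which hexokinase traps the glucose as its phosphate. Cells also take up glucose and other hexoses directly through facilitative transporters such as Glut1, and fly hemocytes are known to draw on circulating trehalose and glucose when they are activated.

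Each array value is a log2 difference from the median of that probe set over the 8 samples, so a value above 0 means above that median. Differences between samples can be read from them, but expression levels, their order between genes and the presence of a transcript cannot. For the same reason the S2 identity could not be checked against markers of blood cells. The base of the logarithm is not given and was taken as 2, and folds depend on it. Nor is the direction of the values given: a higher value was taken to mean more transcript, and every rise or fall below depends on that. Groups follow the sample titles and source names; for 4 samples a further field, genotype, says otherwise and goes with the treatment. Read in the direction taken, the Sting transcript was lower in the samples titled DmSTING: it lay between 0.46 and 0.83 in the 4 samples titled scrambled and between -0.84 and -0.46 in the 4 titled DmSTING (average log2 change -1.30, SE 0.05, n = 2 per group, limma adjusted p = 0.000252). The arrays' SD over all probe sets ran from 0.128 to 0.153 in mock samples and from 0.158 to 0.227 in c-di-GMP samples. The labels do not say whether replicates were separate cultures, so a p-value here speaks to the spread of these samples alone, and that spread may be technical. In RNA from whole cultures, fewer expressing cells and less transcript per cell cannot be told apart.

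With c-di-GMP, 3 members of the set rose: Tret1-1 most, Treh next and Tret1-2 least. Averaged over both dsRNAs, 3 of the 8 measured members rose and 1, sut1, fell (limma adjusted p under 0.05), while sut2, sut3, sut4 and Glut1 did not pass. Over all 11009 genes, 20.9% were called in this comparison, 7.65% higher and 13.3% lower. Because the members were chosen with earlier results known, their counts beside such shares, here and below, are a description and not a test. The median log2 change of the 8 members was 0.09, against -0.03 over all genes. In each of the 3 genes that rose, all 4 c-di-GMP samples lay above all 4 mock samples, a pattern seen in 9.71% of all genes, and in sut1 all 4 lay below, as in 15.4% of all genes.

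**Figure D1:**
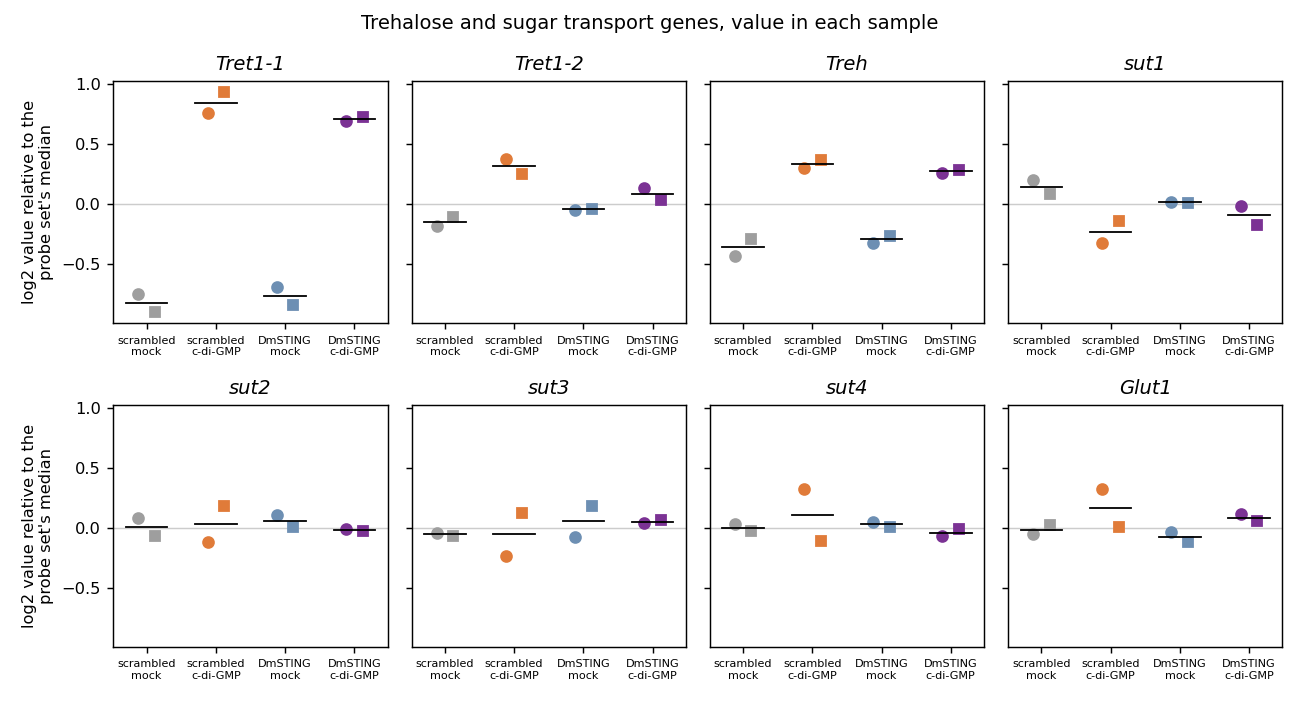
Log2 value relative to the probe set's median (vertical axis) of the 8 measured genes in each of the 8 samples; circles are replicate 1, squares replicate 2 and bars the group means. Tret1-1 separates mock from c-di-GMP samples by more than its replicates differ, Treh does so over a smaller range, and sut2, sut3 and sut4 stay between -0.23 and 0.33.

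Tret1-1 (CG30035) encodes a facilitated trehalose transporter of the plasma membrane. With scrambled dsRNA its log2 values were -0.75 and -0.89 after mock and 0.76 and 0.93 after c-di-GMP. With DmSTING dsRNA they were -0.69 and -0.84 after mock and 0.69 and 0.72 after c-di-GMP. The lowest c-di-GMP sample stood 1.38 above the highest mock sample, whereas replicates of a group differed by at most 0.18. Averaged over both dsRNAs it rose by 1.57 (SE 0.07, n = 2 per group, 2.97-fold, limma adjusted p = 0.000177), with a 95% confidence interval from 1.41 to 1.73. Only 3 of the 11009 genes had a higher log2 change. The range of Tret1-1 over the 8 samples, 1.83, exceeded that of 99.7% of all genes.

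Tret1-1 rose in both arms. From the highest log2 change of the 11009 genes, it ranked at position 14 with scrambled dsRNA and at position 1 with DmSTING dsRNA. The log2 change was 1.67 with scrambled dsRNA (95% confidence interval 1.44 to 1.89, limma adjusted p = 0.00219) and 1.47 with DmSTING dsRNA (1.25 to 1.69, limma adjusted p = 0.00211). The difference of the responses was -0.19, with an interval from -0.51 to 0.12 and a limma adjusted p of 0.997, and so was not detectable with 2 samples per group. The call in the DmSTING arm was lost without either DmSTING mock replicate, at log2 changes of 1.55 without replicate 1 (adjusted p = 0.0536) and 1.40 without replicate 2 (adjusted p = 0.0528). In both of those fits limma called 0 of the 11009 genes for that arm. Over the 16 alternatives for this value, adjusted p ran from 0.00119 to 0.0536. After quantile normalization the difference of the responses was 0.03.

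Tret1-2 (CG8234), the neighbouring gene in the RefSeq gene table, encodes a second protein of the same transporter family and moved less. Its values were -0.18 and -0.11 (mock) against 0.37 and 0.25 (c-di-GMP) with scrambled dsRNA, and -0.05 and -0.04 (mock) against 0.13 and 0.04 (c-di-GMP) with DmSTING dsRNA. Mock and c-di-GMP samples did not overlap, but the gap between the nearest samples was 0.07, smaller than the largest difference between replicates, 0.12. On average it rose by 0.29 (SE 0.05, 1.23-fold, limma adjusted p = 0.00897).

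The rise of Tret1-2 passed the test with scrambled dsRNA, at 0.46 (SE 0.08, limma adjusted p = 0.0131), and not with DmSTING dsRNA, where the change was 0.13 (95% confidence interval -0.05 to 0.31, limma adjusted p = 0.406). The test of the difference itself gave -0.33, with an interval from -0.58 to -0.08. Its unadjusted limma p of 0.017 became an adjusted p of 0.988 over all genes, so the arms are not shown to differ. Of the 8 members Tret1-2 alone had an unadjusted p under 0.05 for this difference, as did 4.91% of all genes. The call with scrambled dsRNA was lost without scrambled mock replicate 1 (0.42, adjusted p = 0.0707) or replicate 2 (0.50, adjusted p = 0.0588). It was also lost when only the 4 samples compared were fitted (adjusted p = 0.0784); over the alternatives the adjusted p ran from 0.0122 to 0.0784.

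Treh (CG9364), trehalase, hydrolyses trehalose to glucose. The log2 values of Treh were -0.43 and -0.29 (mock) against 0.30 and 0.36 (c-di-GMP) with scrambled dsRNA, and -0.32 and -0.26 (mock) against 0.26 and 0.29 (c-di-GMP) with DmSTING dsRNA. The nearest mock and c-di-GMP samples were 0.52 apart and replicates differed by at most 0.14. Averaged over both dsRNAs Treh rose by 0.63 (SE 0.05, n = 2 per group, 1.55-fold, limma adjusted p = 0.000624). It ranked at position 86 of 11009 from the highest log2 change. Its probe set has the suffix _s_at, which in Affymetrix naming marks probes that may match transcripts of several genes, although the annotation names Treh alone.

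In the scrambled arm Treh rose by 0.69 (95% confidence interval 0.51 to 0.87, limma adjusted p = 0.00472), and in the DmSTING arm by 0.57 (0.39 to 0.74, limma adjusted p = 0.00856). The difference of the responses was -0.12 (interval -0.37 to 0.13, limma adjusted p = 0.997). In the DmSTING arm the call was lost without DmSTING mock replicate 1 (0.54) or DmSTING mock replicate 2 (0.60). Those are the fits in which, as given for Tret1-1, the arm had no calls at all. The call was also lost without DmSTING c-di-GMP replicate 2 (0.55). Over the 16 alternatives adjusted p ran from 0.00329 to 0.108.

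**Figure D2:**
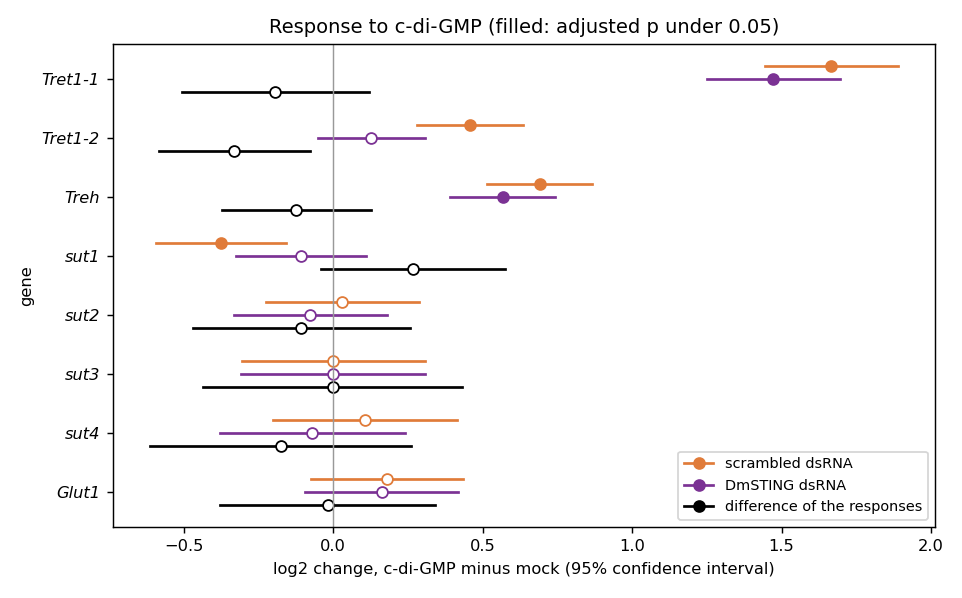
Log2 change between c-di-GMP and mock (horizontal axis) of the 8 genes with 95% confidence intervals from limma, for scrambled dsRNA, for DmSTING dsRNA and for the difference of the responses; filled points have an adjusted p under 0.05. Tret1-1 and Treh have filled points in both arms, Tret1-2 and sut1 with scrambled dsRNA only, and no difference of the responses is filled.

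The sut genes encode predicted sugar transporters of the same superfamily, and sut1, sut2 and sut3 follow each other in the RefSeq gene table. Values of sut1 (CG8714) were 0.20 and 0.09 (mock) against -0.32 and -0.14 (c-di-GMP) with scrambled dsRNA, and 0.02 and 0.01 (mock) against -0.01 and -0.17 (c-di-GMP) with DmSTING dsRNA. The c-di-GMP samples were all lower, by a gap of 0.03 at the nearest, while replicates differed by up to 0.18. On average sut1 fell by 0.24 (SE 0.07, limma adjusted p = 0.0395), and with scrambled dsRNA by 0.38 (SE 0.09, limma adjusted p = 0.043). With DmSTING dsRNA the change was -0.11 (95% confidence interval -0.33 to 0.11), and the difference of the responses was 0.27 (interval -0.04 to 0.58, limma adjusted p = 0.988).

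The calls of sut1 were the least stable of the set. The average call was lost under 8 of 15 alternatives (adjusted p from 0.0502 to 0.126), namely without any library other than scrambled c-di-GMP replicate 2 and DmSTING c-di-GMP replicate 1, with a trended and robust variance, and with a replicate block. The call with scrambled dsRNA was lost under 11 of 16 (adjusted p from 0.0504 to 0.176), among them the omission of any library other than scrambled c-di-GMP replicate 2. Over all alternatives the average change stayed between -0.29 and -0.20.

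The other sut genes did not pass in any comparison with all samples. Values of sut2 (CG17975) ran from -0.11 to 0.19, those of sut3 (CG17976) from -0.23 to 0.18 and those of sut4 (CG1380) from -0.11 to 0.33. In all 3 genes the replicates of scrambled c-di-GMP differed more than those of any other group: -0.11 and 0.19 for sut2, -0.23 and 0.12 for sut3, and 0.33 and -0.11 for sut4. Average log2 changes with c-di-GMP were -0.02 for sut2 (95% confidence interval -0.20 to 0.16), -0.0002 for sut3 (-0.22 to 0.22) and 0.02 for sut4 (-0.20 to 0.24). Without scrambled c-di-GMP replicate 2, sut4 stood at 0.32 in the scrambled arm and was called (adjusted p = 0.047, against 0.648 with all samples), on the 1 sample left in that group. Without replicate 1 it stood at -0.11.

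Glut1 (CG43946), a facilitative glucose transporter, was covered by 2 probe sets, whose mean was used. Its values were -0.05 and 0.02 (mock) against 0.33 and 0.01 (c-di-GMP) with scrambled dsRNA, and -0.03 and -0.12 (mock) against 0.11 and 0.06 (c-di-GMP) with DmSTING dsRNA. Mock and c-di-GMP samples overlapped, by 0.02. The average change was 0.17 (SE 0.08, 95% confidence interval -0.01 to 0.35, limma adjusted p = 0.17), with 0.14 at one probe set and 0.21 at the _s_at probe set. As for sut4, scrambled c-di-GMP replicate 1 was the highest sample. Replicates 1 and 2 of that group lay at 0.45 and -0.14 at the _s_at probe set, and at 0.21 and 0.16 at the other. Without replicate 2 of that group the average change was 0.25, and without replicate 1 it was 0.09.

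Within each arm the counts were as follows. With scrambled dsRNA 3 of 8 members rose and 1 fell, where 12.1% of all genes were called (4.14% higher and 7.93% lower). With DmSTING dsRNA 2 of 8 rose and none fell, where 7.44% were called (3.27% higher and 4.17% lower). Leaving out 1 library at a time moved these counts in both arms. Fewer members were called without either scrambled mock replicate, and more without scrambled c-di-GMP replicate 2. In the DmSTING arm fewer were called without either DmSTING mock replicate or DmSTING c-di-GMP replicate 2. In each fit where fewer members were called, fewer of all genes were called too, so those losses are not particular to the set.

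DmSTING dsRNA by itself was not seen to move the set. Of the 8 members 0 were called by limma between DmSTING and scrambled dsRNA under mock, under c-di-GMP or on average, where in each case 1 of 11009 genes, Sting, was called (0.00908%). At an unadjusted limma p under 0.05 the members numbered 0 under mock (3.22% of all genes), 1 under c-di-GMP (13.7%) and 0 on average (12.5%). The member under c-di-GMP was Tret1-2, at -0.23, with a 95% confidence interval from -0.41 to -0.05 and a limma adjusted p of 0.311. Under mock the log2 changes lay between -0.13 for sut1 and 0.11 for sut3. For Tret1-1 the change was 0.06 under mock (95% confidence interval -0.17 to 0.28) and -0.14 under c-di-GMP (-0.36 to 0.08), the latter at 0.34 after quantile normalization. For Treh it was 0.07 (-0.11 to 0.24) and -0.06 (-0.23 to 0.12). For the difference of the c-di-GMP responses, limma called 0 of the 8 members and 0 of all genes (0%), with 1 member and 540 genes at an unadjusted p under 0.05. Without DmSTING c-di-GMP replicate 2 it called 12 genes, none of them members.

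The genes whose 8 sample values were most like those of Tret1-1 were taken from the 243 genes with a range of at least 1, Tret1-1 among them, by Pearson's r. They were RIOK1, a kinase of small ribosomal subunit maturation (r = 0.99), Hex-A, a hexokinase (r = 0.99), CG8545 (r = 0.99), CG3348 (r = 0.97) and CG13185 (r = 0.97). The most opposite were CAH1, a carbonic anhydrase, CG7083 and Pdcd4, whose mammalian counterpart inhibits translation initiation (each r = -0.99). All values come from the same 8 arrays, and r here mostly describes the split of mock from c-di-GMP samples. Among the members, Treh had r = 0.98 with Tret1-1 and Tret1-2 r = 0.84. Their ranges, 0.79 and 0.56, were under the minimum of 1 set for the genes above. Hex-A, which acts on the glucose that trehalase releases, was at -0.35 and -0.43 (mock) against 0.52 and 0.56 (c-di-GMP) with scrambled dsRNA, and -0.37 and -0.47 (mock) against 0.52 and 0.35 (c-di-GMP) with DmSTING dsRNA.

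**Figure D3:**
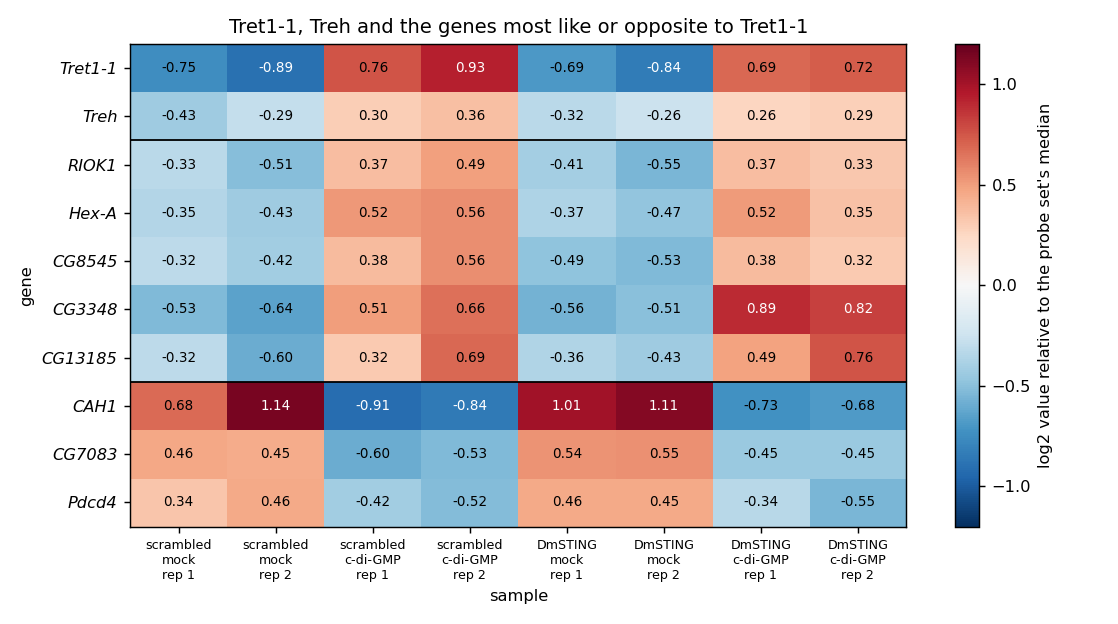
Log2 values relative to the probe set's median (colour and printed number) in each of the 8 samples for Tret1-1 and Treh (upper block), the 5 genes most like Tret1-1 (middle block) and the 3 most opposite (lower block). The middle block is positive in c-di-GMP and negative in mock samples, and the lower block is the reverse.

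Further genes of sugar metabolism were followed as 5 lists in the average c-di-GMP comparison, in which 20.9% of all genes were called (7.65% higher and 13.3% lower) and the median log2 change of all genes was -0.03. Of 6 genes of hexose phosphorylation and use, Hex-A rose by 0.89 (SE 0.06, limma adjusted p = 0.000426), Galk, galactokinase, fell by 0.43 (SE 0.06, limma adjusted p = 0.00265), and 4 did not pass. Both calls held under all 15 alternatives tried and in each arm by itself, Hex-A at 0.93 and 0.86 and Galk at -0.45 and -0.40 for scrambled and DmSTING dsRNA. The hexokinase Hex-C was at 0.01 and the isomerase Pgi at 0.02, with intervals from -0.22 to 0.24 and from -0.12 to 0.15; neither was picked by the rule for named genes. The median of the list was -0.06.

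Of 22 other sugar transporter genes, nebu rose by 0.29 (SE 0.07, limma adjusted p = 0.0249), CG1213 fell by 0.52 (SE 0.07, limma adjusted p = 0.00309) and 20 did not pass, so that 2 of 22 were called where 20.9% of all genes were. The median of the list was -0.04, close to the -0.03 of all genes. Glut3 and CG4797 were listed too, but no measured gene had those symbols. CG1213 was at 0.10 and 0.21 (mock) against -0.41 and -0.22 (c-di-GMP) with scrambled dsRNA, and 0.36 and 0.36 (mock) against -0.10 and -0.30 (c-di-GMP) with DmSTING dsRNA, with no overlap between mock and c-di-GMP. It fell in both arms, by 0.47 and 0.56, and its average call held under all 15 alternatives. The call of nebu was lost without scrambled mock replicate 2, scrambled c-di-GMP replicate 1, either DmSTING mock replicate or DmSTING c-di-GMP replicate 1 (log2 change 0.24 to 0.33 over all alternatives, adjusted p 0.0537 to 0.104 where lost).

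Of 11 further measured genes of trehalose and glycogen metabolism 0 rose, 2 fell and 9 did not pass, at a median of -0.06. GlyS, GlyP and Glycogenin were listed too, but no measured gene had those symbols. A share of 2 in 11 is near the 20.9% called over all genes. CG9485, the glycogen debranching enzyme, fell by 0.23 (SE 0.06, limma adjusted p = 0.037). Gbs-70E, a subunit that directs protein phosphatase to glycogen, fell by 0.18 (SE 0.05, limma adjusted p = 0.0488). CG5171, which the rule for named genes did not pick, had a larger change of -0.46 and did not pass (SE 0.14, limma adjusted p = 0.0554). The call of CG9485 was lost without any library other than scrambled mock replicate 1 and scrambled c-di-GMP replicate 1 (adjusted p 0.0603 to 0.134). That of Gbs-70E was lost under 12 of 15 alternatives, among them the omission of any library other than scrambled mock replicate 1 (adjusted p 0.0534 to 0.173).

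Of 12 measured maltases and amylases, which release glucose from maltose and starch, 1 rose, 3 fell and 8 did not pass. Of all genes 7.65% were higher and 13.3% lower, and the median was -0.12 against -0.03 over all genes. The amylases Amy-p and Amy-d were listed too, but no measured gene had those symbols. Mal-A1 fell by 0.52 (SE 0.10, limma adjusted p = 0.0107), Mal-B2 by 0.27 (SE 0.06, adjusted p = 0.0166) and Mal-A5 by 0.27 (SE 0.06, adjusted p = 0.0176), and Mal-A3 rose by 0.30 (SE 0.08, adjusted p = 0.043). Each of these calls was lost without some single libraries: Mal-A1 without DmSTING mock replicate 2 (adjusted p = 0.0502), and Mal-A5 without scrambled mock replicate 1, DmSTING mock replicate 2 or DmSTING c-di-GMP replicate 2 (0.0576 to 0.0794). Mal-B2 lost its call without scrambled mock replicate 2, either DmSTING mock replicate or DmSTING c-di-GMP replicate 1 (0.0525 to 0.0753), and Mal-A3 without any library other than scrambled c-di-GMP replicate 2 (0.0701 to 0.151). Without DmSTING mock replicate 2 all calls of this list were lost, and fewer of all genes were called in that fit too.

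Among 8 genes of sugar sensing and hormones, 1 rose, 4 fell and 3 did not pass, against 7.65% of all genes higher and 13.3% lower, and the median was -0.24 against -0.03 over all genes. The gene that rose was ImpL2, a secreted antagonist of insulin signalling, by 0.41 (SE 0.05, limma adjusted p = 0.00154). It was at -0.34 and -0.25 (mock) against 0.15 and 0.15 (c-di-GMP) with scrambled dsRNA, and -0.15 and -0.15 (mock) against 0.23 and 0.20 (c-di-GMP) with DmSTING dsRNA. Those that fell were sug, a sugar-responsive zinc finger factor known as sugarbabe (by 0.38, SE 0.05, limma adjusted p = 0.00222), cbt, another sugar-responsive factor (by 0.35, SE 0.06, adjusted p = 0.00786), bigmax, the partner of the sugar sensor Mondo (by 0.34, SE 0.06, adjusted p = 0.00637), and daw, an activin-like ligand (by 0.23, SE 0.06, adjusted p = 0.0348). The calls of ImpL2, sug, cbt and bigmax held under all 15 alternatives. That of daw was lost without any library other than scrambled c-di-GMP replicate 2 (adjusted p 0.0564 to 0.123).

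The values of sug are given by arm, although the arms are not shown to differ. It was at 0.09 and 0.13 (mock) against -0.50 and -0.44 (c-di-GMP) with scrambled dsRNA, and 0.15 and 0.06 (mock) against -0.10 and -0.06 (c-di-GMP) with DmSTING dsRNA. The change was -0.58 with scrambled dsRNA (limma adjusted p = 0.00551) and -0.19 with DmSTING dsRNA (limma adjusted p = 0.161). The difference of the responses was 0.39 (95% confidence interval 0.16 to 0.62). Its unadjusted limma p of 0.00474 became an adjusted p of 0.988, so it did not pass over all genes. For this difference 4.91% of all genes had an unadjusted limma p under 0.05.

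**Figure D4:**
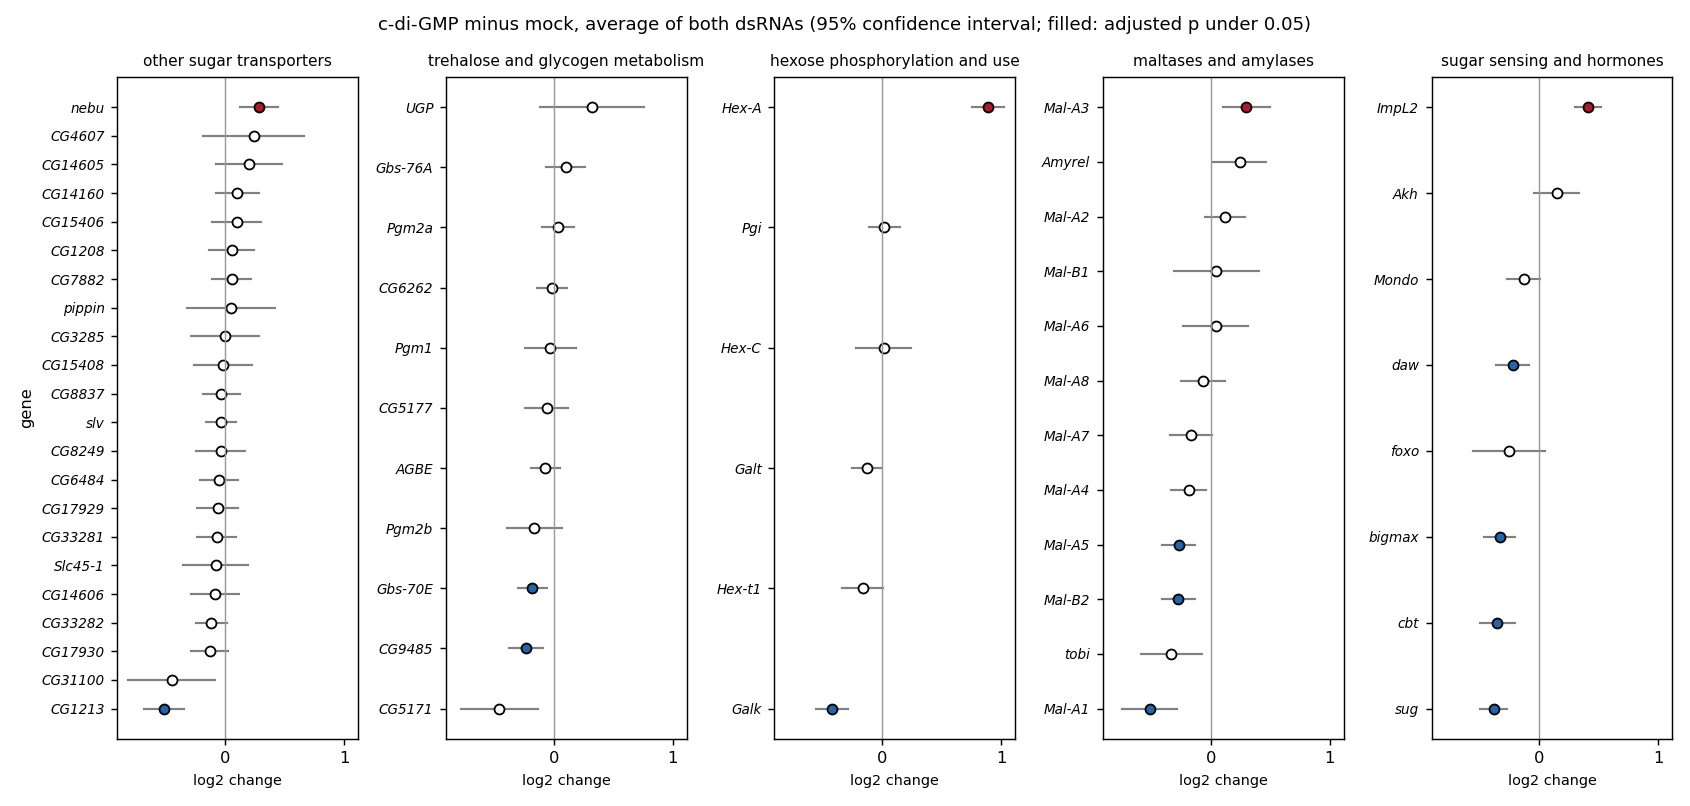
Log2 change with c-di-GMP averaged over both dsRNAs (horizontal axis, 95% confidence interval from limma) of every measured gene of the 5 lists of sugar metabolism; red points rose and blue points fell at an adjusted p under 0.05, open points did not pass. Hex-A is the highest gene at 0.89 and CG1213 and Mal-A1 are the lowest at -0.52.

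Some markers of blood cell types and of other cells fell in the same comparison, in which 13.3% of all genes fell, and none rose. Of 9 plasmatocyte markers 4 fell (Col4a1, crq, NimC1 and vkg) and 0 rose, and the mean value of the list was 0.04 to 0.08 in mock and -0.24 to -0.09 in c-di-GMP samples. Of 4 lamellocyte markers 2 fell (mys and PPO3), with a mean of 0.09 to 0.13 in mock and -0.29 to -0.01 in c-di-GMP samples. Of 3 crystal cell and 3 fat body markers none passed, and of 2 glial markers 1 fell, moody. Whether any marker is near 0 in level cannot be read from centred values, and their part in the changes of the sugar genes was not tested.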

How the data were processed

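Biotin-labelled cRNA of 8 S2 cell samples was made with a 3' IVT kit of Affymetrix, as the labels' protocols say. The authors deposited 1 table of log2 values of 16718 probe sets, each centred on its median over the 8 samples (0 medians lay more than 1e-06 from 0). How they were summarized, scaled or filtered, and with what software, is not given in the sources used here.

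Of the probe sets 12339 named 1 gene, 367 several and 4012 none. Probe sets of a gene were averaged, which gave 11009 genes. They were fitted with limma 3.58.1 in R 4.3.3 (lmFit, eBayes; 4 group means, 4 residual degrees of freedom; prior SD 0.0902 on 3.25 degrees of freedom) for 7 contrasts, with Benjamini-Hochberg adjustment over all genes and a call at 0.05. The fit was tested on simulated data. Where leaving out a library left 1 sample in a group, that sample was assumed to vary like the other groups. Precision is limited by the number of arrays, and detection could not be assessed.

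Members, lists and tests were chosen with earlier results of these data known. Named genes were all members, Sting, the called genes of each list (up to 6) in the average c-di-GMP contrast, and the 5 genes most and 3 least like Tret1-1. Same-numbered replicates were not treated as pairs, since not every correlation of their deviations exceeded 0.1. Alternatives changed the probe sets used, the scaling, the variance model, the samples fitted, the replicate block and a filter on a range under 0.2, and left out each library in turn.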

Additional observations from a re-analysis of the deposited data

How the results depend on the processing

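The alternatives were 8 other choices of processing and the omission of each library in turn. Fitting only the samples compared, which for the 2 averages and the difference of responses is the reported fit, gave 2 members called for c-di-GMP with scrambled dsRNA in place of 4. Leaving out 1 library, the count ran from 2 to 6 there, from 0 to 2 with DmSTING dsRNA, from 3 to 5 on average, and stayed at 0 for the other comparisons, all by limma. With the replicate block, which rests on shared numbers only (correlations of replicate deviations 0.009 to 0.289 over genes), the count was 3 with scrambled dsRNA, 2 with DmSTING dsRNA and 3 on average. Over all genes, calls with scrambled dsRNA were 1329 as reported, 141 from the 4 samples alone, and 426 and 221 without scrambled mock replicates 1 and 2. For the average c-di-GMP change the calls of Tret1-1, Treh and Tret1-2 held under all 15 alternatives run, at adjusted p up to 0.00295, 0.00733 and 0.0484.

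Changes of direction were found only in values that did not pass as reported, and their cause was not tested. With quantile normalization the difference of responses was 0.0277 for Tret1-1 and 0.0319 for Glut1. The DmSTING change (DmSTING minus scrambled dsRNA) under c-di-GMP was then 0.3363 for Tret1-1 and 0.0129 for Treh, and the average DmSTING change 0.3225 for Tret1-1, -0.0344 for sut1 and 0.008 for sut2. The c-di-GMP change of sut3 was 0.0004 with DmSTING dsRNA and 0.0245 on average. With arrays centred on their median, that of sut3 was 0.005 and 0.0117, and the average DmSTING change was -0.0024 for Treh and -0.0014 for sut1. With the more variable Glut1 probe set the difference of responses was 0.0308, and the DmSTING change 0.0222 under c-di-GMP and 0.0068 on average.

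Leaving out 1 library at a time, these values spanned 0. The c-di-GMP change with scrambled dsRNA ran from -0.1188 to 0.1806 for sut2, from -0.1763 to 0.1777 for sut3 and from -0.1117 to 0.3243 for sut4. With DmSTING dsRNA it ran from -0.1313 to 0.1292 for sut3. On average it ran from -0.0976 to 0.0521 for sut2, from -0.0887 to 0.0883 for sut3 and from -0.0907 to 0.1273 for sut4. The difference of responses ran from -0.2571 to 0.0424 for sut2, from -0.1787 to 0.1752 for sut3, from -0.394 to 0.0421 for sut4 and from -0.1796 to 0.1426 for Glut1. The DmSTING change under mock ran from -0.0199 to 0.1304 for Tret1-1, from -0.0048 to 0.1367 for Treh, from -0.0203 to 0.1275 for sut2, from -0.0232 to 0.2373 for sut3 and from -0.0001 to 0.0599 for sut4. Under c-di-GMP it ran from -0.2035 to 0.096 for sut2, from -0.0717 to 0.2823 for sut3, from -0.3641 to 0.072 for sut4 and from -0.2414 to 0.0807 for Glut1. The average DmSTING change ran from -0.0854 to 0.0024 for Tret1-1, from -0.0313 to 0.0394 for Treh, from -0.0412 to 0.0513 for sut1, from -0.075 to 0.0748 for sut2, from -0.1671 to 0.051 for sut4 and from -0.1516 to 0.0094 for Glut1.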
